A study of Mus musculus with 4 samples.

Results

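The Zfp genes are the mouse zinc finger protein genes that carry only a number in their names, most of which encode DNA-binding proteins of the C2H2 type. They were taken from the deposited gene table by name (Zfp, a number and at most 1 further letter) and by level (a mean count of 100 or more over the 4 libraries). This gave 244 genes of the 366 that match the name and of 34745 genes in all. The members were thus chosen by their counts over all libraries, not by the difference between groups. Total RNA was sequenced from CD4+ T cells of C57BL/6 mouse spleen that had been taken as naive cells and cultured for 3 days under conditions that polarise them to regulatory T cells (Treg). There were 2 wild-type libraries, 13 and 15, and 2 libraries, 22 and 24, from mice whose genotype is labelled Setd2-CD4 cre. Setd2 is the histone methyltransferase that places H3K36me3 over transcribed gene bodies, and Cre driven by Cd4 acts in T cells from the thymus onwards. The labels give no age, sex or floxed exon, and do not state whether the replicate libraries are from different mice. The p-values therefore reflect only how far these 4 libraries scatter, and that scatter may be technical.

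C2H2 zinc finger proteins read DNA with tandem fingers, each of which contacts a few bases, and they form the largest family of transcription factors in mammals. Many also carry a KRAB domain, which recruits the corepressor TRIM28 (KAP1), and TRIM28 in turn brings SETDB1, HP1 and deacetylases that place and read H3K9me3 over endogenous retroviruses and imprinted regions. The genes arose by tandem duplication and lie in chromosomal clusters, and their own bodies are known to carry both H3K9me3 and H3K36me3. The comparison of the Setd2-labelled with the wild-type libraries asks how the RNA of this family differed where the H3K36me3 methyltransferase was targeted.

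The libraries held 14599957 to 16030869 counts, and 3 counts in a library correspond to 0.184 to 0.201 CPM (counts per 1000000 counts of the library). All 244 members passed the filter on low counts, and their lowest count in any library was 40. Setd2 itself was counted at 137 and 146 CPM in the wild-type libraries and at 137 and 113 CPM in the knockout-labelled ones (log2 fold change -0.17, SE 0.14, edgeR adjusted p = 0.436). These whole-gene counts do not check the deletion, since the labels do not say which exons are removed. Of 6 T cell and Treg markers 2 fell and 0 rose. Cd3e (259 to 291 CPM) and Cd4 (985 to 1260 CPM) did not pass, and Foxp3, the transcription factor that defines Treg, was at 241 and 247 CPM in wild type and at 31.9 and 75.7 CPM in the knockout-labelled libraries (edgeR adjusted p = 0.0233). Il2ra (CD25) fell from 1190 and 1230 to 828 and 856 CPM (edgeR adjusted p = 0.0304). Ctla4 (683 and 676 against 967 and 834 CPM) and Ikzf2 (167 and 165 against 220 and 201 CPM) were higher without overlap and did not pass (edgeR adjusted p = 0.0702 and 0.103). The 4 B cell markers summed to 13.9 and 12 CPM in wild type and to 29.2 and 22.4 CPM in the knockout-labelled libraries; 0 passed by edgeR or DESeq2, and 4 had an unadjusted edgeR p below 0.05. The CD8 and NK markers summed to 79.6 to 185 CPM and the myeloid markers to 11.1 to 18.7 CPM with the groups overlapping, and the NK marker Ncr1 was at 0 counts in both wild-type libraries. In bulk RNA, fewer cells of a type and less RNA per cell cannot be told apart, and the part of these Treg and B cell markers in the results below was not tested.

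Few single Zfp genes passed the test, and the family as a whole lay slightly below 0. By edgeR's quasi-likelihood test with adjustment over all 13279 genes tested, 5 members rose and 13 fell in the knockout-labelled libraries, and 226 did not pass. These are 2.05% and 5.33% of the members, where 5.53% of all genes tested rose and 4.59% fell. The counts moved widely in fits that left out 1 library, where the group that keeps both libraries sets the scatter. Such fits do not show that a call rests on 1 library. Among the 10045 genes with a mean count of 100 or more, 5.69% rose and 5.11% fell. The median log2 fold change of the members was -0.154, beside -0.001 for all genes and -0.009 for those with a mean count of 100 or more. Of the 244, 159 members (65.2%) had a fold change below 0, where 50.1% of all genes did. With any 1 library left out, 153 to 166 were below 0. Both knockout-labelled libraries showed this. Relative to the wild-type mean, the median member stood at -0.168 in library 22 and -0.152 in library 24 on the log2 scale. The wild-type libraries stood at -0.005 and 0.005. They make up that mean, so their values mirror each other around 0 by construction and are no check on the others. The 2 groups did not overlap for 112 members that were lower and for 48 that were higher, or 45.9% and 19.7%, where 32.7% and 31.1% of all genes tested separate in this way. Summed over the family, the Zfp genes took 0.901% and 0.924% of normalised counts in wild type and 0.88% and 0.839% in the knockout-labelled libraries, so the groups did not overlap but differed little.

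**Figure D1:**
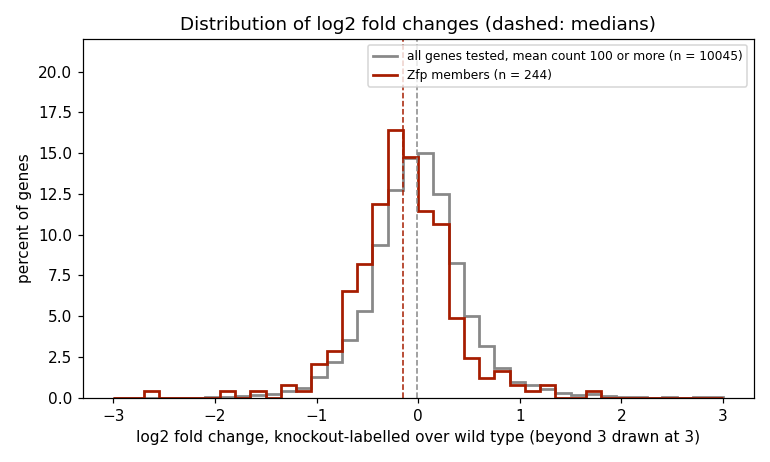
Histogram of log2 fold changes (knockout-labelled over wild type, x axis) as percent of genes (y axis) for the 244 Zfp genes and for all genes tested with a mean count of 100 or more; dashed lines are the medians. The Zfp distribution is shifted to the left by a small amount, with medians of -0.154 and -0.009.

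Zfp62 fell most of the members that passed the test. This gene, with no other Zfp gene within 200000 bases, lies on chromosome 11 (49203292 to 49218816, plus strand, GRCm38; ENSMUSG00000046311). It was counted at 90.5 and 124 CPM in wild type and at 20.8 and 14 CPM in the knockout-labelled libraries. The means were 107 ± 23.5 and 17.4 ± 4.78 CPM (SD, n = 2 each), a 6.15-fold fall (log2 fold change -2.62, SE 0.24, edgeR adjusted p = 0.0095). Zfp932, a KRAB zinc finger protein known as a repressor of endogenous retroviruses, lies on chromosome 5 (109996521 to 110010411, plus strand; ENSMUSG00000066613). It was counted at 43.0 and 39.5 CPM in wild type and at 10.6 and 15.9 CPM in the knockout-labelled libraries, a 3.11-fold fall (log2 fold change -1.64, SE 0.22, edgeR adjusted p = 0.0156). Its counts are less certain than those of the others, because 63.0% of its 50-base stretches occur in no other gene's transcripts, where the other members that passed had at least 91.7%. Gm15446, another zinc finger gene, named here after its values were seen, had a log2 fold change of -0.47 that did not pass (edgeR adjusted p = 0.136). Zfp62 and Zfp932 passed the test under each of the 10 other analyses tried, and no other Zfp gene that passed did so. The other 16 kept their sign but lost the threshold when wild-type library 13 or 15 was left out. In those fits the knockout-labelled pair alone sets the scatter.

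The other 11 members that fell did so by 1.56- to 2.45-fold. Zfp579 on chromosome 7 (4983483 to 4996158, minus strand) was counted at 17.8 and 18.4 CPM in wild type and at 6.29 and 8.42 CPM in the knockout-labelled libraries (2.45-fold lower, log2 fold change -1.29, SE 0.21, edgeR adjusted p = 0.0219). Zfp933 on chromosome 4 (147822986 to 147848366, minus strand), which is annotated with a KRAB domain, stood at 13.3 and 14.4 against 5.35 and 5.99 CPM (log2 fold change -1.29, SE 0.20, edgeR adjusted p = 0.0199). In both genes the replicates of a group lay close together and the groups were well apart. Zfp61 on chromosome 7 (24291039 to 24301232) was at 24.1 and 19.6 against 8.42 and 12.1 CPM, and Zfp40 on chromosome 17 (23173869 to 23193252) was at 28.4 and 23.1 against 12.3 and 14.4 CPM. These 2 are also annotated with a KRAB domain and fell by 1.09 and 0.95 on the log2 scale (edgeR adjusted p = 0.0384 and 0.0332). Zfp41 on chromosome 15 (75616679 to 75625300) was at 33.3 and 35.9 against 19.1 and 18.6 CPM, with a log2 fold change of -0.88 (SE 0.15, edgeR adjusted p = 0.0235).

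Smaller falls passed in Zfp672, Zfp783, Zfp738, Zfp606, Zfp329 and Zfp646, with log2 fold changes between -0.86 and -0.64 and edgeR adjusted p between 0.0350 and 0.0474. Zfp646, the highest of these in counts, was at 85.1 and 90.6 CPM in wild type and at 53.2 and 59.4 CPM in the knockout-labelled libraries. Zfp329 was at 49.5 and 62.9 against 33.6 and 36.9 CPM, and Zfp606 at 29.0 and 28.6 against 16.3 and 18.4 CPM. Zfp672 (19.4 and 22.8 against 10.6 and 12.6 CPM), Zfp783 (15.2 and 18.7 against 8.69 and 10.1 CPM) and Zfp738 (17.0 and 19.7 against 11.2 and 9.31 CPM) were lower in level. In each of the 13 genes the higher knockout-labelled library lay below the lower wild-type library. Zfp646, Zfp672 and Zfp738 overlap genes on the opposite strand, and the strand setting was not given in the sources used here. Zfp783 overlaps Zfp956 on the same strand, though 96.5% of its 50-base stretches occur in no other gene's transcripts. Reads from the overlapping parts cannot be assigned with certainty, and the extent of the overlaps was not measured. Zfp60 (28.0 and 30.8 against 18.3 and 11.5 CPM, log2 fold change -0.98) and Zfp955b (log2 fold change -0.88) missed the threshold narrowly, at edgeR adjusted p = 0.0511 and 0.0513; they were named after their values were seen.

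**Figure D2:**
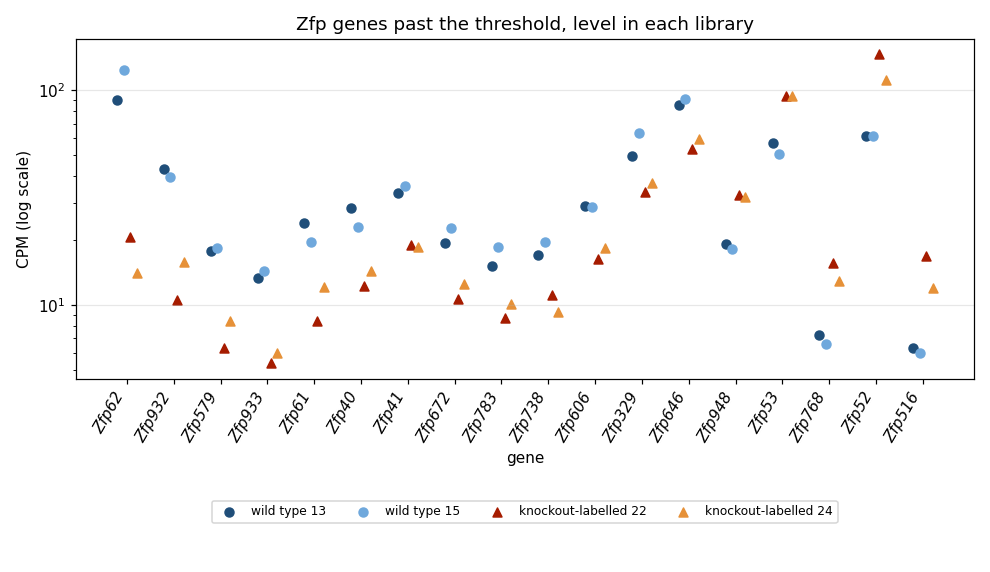
CPM of the 18 Zfp genes that passed the test (y axis, log scale) in each of the 4 libraries, ordered along the x axis, 1 point per library. In all 18 genes both knockout-labelled points lie on the same side of both wild-type points; Zfp62 has the widest gap and Zfp516 is among the lowest in level.

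Of the 5 members that rose, 3 are neighbours on chromosome 17. Zfp53 (21491256 to 21509764), Zfp52 (21555046 to 21562066) and Zfp948 (21567046 to 21588697) lie in this order on the plus strand, and all 3 are annotated with a KRAB domain. Zfp52 was counted at 61.2 and 60.9 CPM in wild type and at 147 and 111 CPM in the knockout-labelled libraries (2.12-fold higher, log2 fold change 1.08, SE 0.17, edgeR adjusted p = 0.0199). Zfp53 went from 56.5 and 50.4 CPM to 94.5 and 93.6 CPM (1.76-fold higher, log2 fold change 0.81, SE 0.13, edgeR adjusted p = 0.0218). Zfp948 went from 19.3 and 18.2 CPM to 32.6 and 31.8 CPM (1.72-fold higher, log2 fold change 0.78, SE 0.15, edgeR adjusted p = 0.0299). The replicates of Zfp53 and Zfp948 differed little, while in Zfp52 library 22 was above library 24. Zfp51, the next Zfp gene upstream, stood at 37.7 and 39.1 against 75.5 and 50 CPM and did not pass (log2 fold change 0.71, edgeR adjusted p = 0.0717). Zfp52 overlaps 9330136K24Rik on the opposite strand, which was at 0.334 to 0.918 CPM.

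The promoters of these neighbours resemble one another. The windows below run from 250 bases before to 50 bases after the RefSeq transcript start (GRCm38.p6, plus strand). Capitals mark the stretches of at least 10 bases that Zfp53, Zfp52 and Zfp948 have in common. The first window of Zfp54, which lies upstream in the same cluster and had a log2 fold change of -0.12 that did not pass (edgeR adjusted p = 0.825), is shown for comparison and holds none of those stretches.
Zfp53 (chr17:21488738-21489037): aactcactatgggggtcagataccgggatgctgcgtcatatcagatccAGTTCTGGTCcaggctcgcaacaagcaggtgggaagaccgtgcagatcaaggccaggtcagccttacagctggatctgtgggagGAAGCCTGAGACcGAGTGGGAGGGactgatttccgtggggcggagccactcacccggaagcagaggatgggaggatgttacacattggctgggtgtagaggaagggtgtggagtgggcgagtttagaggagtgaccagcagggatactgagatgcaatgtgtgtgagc
Zfp52 (chr17:21535289-21535588): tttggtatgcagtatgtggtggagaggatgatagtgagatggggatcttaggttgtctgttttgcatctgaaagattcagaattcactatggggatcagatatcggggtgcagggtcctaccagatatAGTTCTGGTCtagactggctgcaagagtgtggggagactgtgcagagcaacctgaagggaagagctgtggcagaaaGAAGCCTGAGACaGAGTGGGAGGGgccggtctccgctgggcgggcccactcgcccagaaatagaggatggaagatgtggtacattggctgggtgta
Zfp948 (chr17:21566728-21567027): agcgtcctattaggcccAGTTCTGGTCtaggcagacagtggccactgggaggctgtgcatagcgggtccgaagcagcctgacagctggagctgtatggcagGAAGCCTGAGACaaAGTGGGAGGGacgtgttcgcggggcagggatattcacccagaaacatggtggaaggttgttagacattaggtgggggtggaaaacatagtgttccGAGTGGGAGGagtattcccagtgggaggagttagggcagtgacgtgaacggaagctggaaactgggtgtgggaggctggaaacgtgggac
Zfp54 (chr17:21422977-21423276): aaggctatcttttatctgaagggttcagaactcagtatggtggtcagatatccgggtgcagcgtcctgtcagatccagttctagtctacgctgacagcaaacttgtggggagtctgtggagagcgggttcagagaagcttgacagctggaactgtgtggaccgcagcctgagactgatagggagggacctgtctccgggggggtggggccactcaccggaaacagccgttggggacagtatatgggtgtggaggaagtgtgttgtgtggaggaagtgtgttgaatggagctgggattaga
The stretch GAAGCCTGAGAC occurs, on either strand, in 6 of 32851 RefSeq promoter windows of this length (0.0183%), and AGTTCTGGTC in 34 (0.103%). The stretches were taken from Zfp52, Zfp53 and Zfp948, so their presence in these genes was set beforehand. Of the 11 genes of the cluster with a window, no other held both in exact form. Zfp51 had no window. The Zfp54 window holds close variants of these stretches, agttctagtc and gcagcctgagac. The overlapping stretches GAGTGGGAGG and AGTGGGAGGG are more common, at 0.496% and 0.563% of all windows, and also occur in Zfp946. The windows were aligned locally, so identity is over the best-matching part, counted in aligned columns with gaps included. Zfp53 and Zfp52 were 74.2% identical over 233 columns, and Zfp53 and Zfp948 68.9% over 289. Zfp54 was 71.7% identical to Zfp53 over 290 columns, so the 4 promoters were similar whether or not the gene passed the test. For comparison, Zfp53 and Zfp760 of the same cluster gave 51.4% over 325 columns. A shared stretch is a description of these letters, not a binding site. For Zfp52, Zfp53 and Zfp948 the locus in the deposited table begins downstream of the RefSeq start used here.

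The rise did not extend along the whole cluster. Counting genes whose starts lie within 200000 bases of the next, the chromosome 17 chain from Zfp677 to Zfp946 (21383748 to 22456689) holds 12 members, of which 3 rose and 0 fell. The log2 fold changes ran, in chromosomal order, from 0.31 in Zfp677 and -0.12 in Zfp54 through the 4 genes from Zfp51 to Zfp948 at 0.71 to 1.08, and then from Zfp760 to Zfp946 between -0.20 and 0.26. Of the 12 members, 6 were above 0 and 6 below. Leaving out either wild-type library left 0 genes of this chain past the threshold, and 3 or 4 passed in the other analyses; Zfp51 was the fourth with DESeq2.

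The remaining genes that rose lie elsewhere. Zfp768 on chromosome 7 (127342795 to 127345589, minus strand) was at 7.29 and 6.57 CPM in wild type and at 15.6 and 12.9 CPM in the knockout-labelled libraries (log2 fold change 1.04, SE 0.20, edgeR adjusted p = 0.0308). Zfp516, a transcription factor known for driving the brown fat programme, was at 6.31 and 5.97 against 16.8 and 12 CPM (log2 fold change 1.23, SE 0.23, edgeR adjusted p = 0.0297). Both are low in level, and in both the groups were apart by more than the replicates.

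Of the other 8 chains with at least 5 members, all had a median below 0, from -0.444 to -0.013, and few of their genes passed. For the counts without overlap that follow, 32.7% of all genes tested were lower and 31.1% higher in this way. By edgeR, 5.53% of all genes tested rose and 4.59% fell, and 50.1% had a log2 fold change below 0. On chromosome 7, all 6 members from Zfp60 to Zfp850 (27731389 to 28014115) were lower in both knockout-labelled libraries than in either wild-type library, with a median log2 fold change of -0.44. None of the 6 passed by edgeR, 3 had an unadjusted p below 0.05, and DESeq2 called 1, Zfp60. The edgeR adjusted p ran from 0.0511 in Zfp60 and 0.0550 in Zfp626 to 0.370 in Zfp780b. Further along chromosome 7, 10 of the 11 members from Zfp84 to Zfp146 (29768552 to 30169727) were below 0 and 8 did not overlap between groups, with a median of -0.244; 0 passed by edgeR or DESeq2, and 4 had an unadjusted edgeR p below 0.05. On chromosome 6, all 7 members from Zfp398 to Zfp746 (47819266 to 48086593) were below 0 (median -0.153), and Zfp783 among them fell. The longest chain, from Zfp712 to Zfp273 on chromosome 13 (67038594 to 67827002), held 18 members, of which 12 were below 0 and 1, Zfp738, fell; 4 members in its middle, from Zfp429 to Zfp58, were higher in both knockout-labelled libraries, and none of those 4 passed. The chromosome 7 chain from Zfp553 to Zfp629 (127233061 to 127615797) was even: of its 8 members, 4 were higher and 4 lower without overlap, with a median of -0.013 (0.007 without library 13 and 0.004 without library 22), and Zfp768 among them rose. Neighbouring members can share reads, and the chains were drawn after values were seen, so their counts are given as a description.

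**Figure D3:**
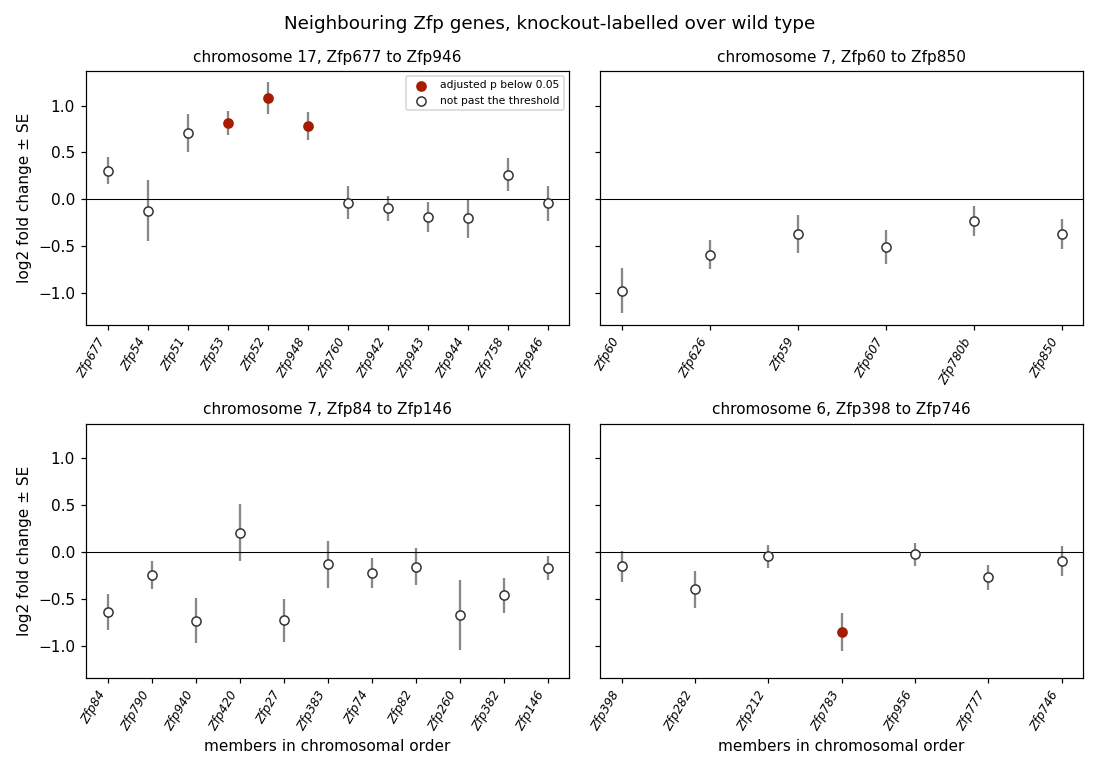
Log2 fold changes (knockout-labelled over wild type, ± SE, y axis) of members of 4 chains of neighbouring Zfp genes, in chromosomal order along the x axis, with a line at 0. Zfp51 to Zfp948 stand above 0 within the chromosome 17 chain, and the members from Zfp60 to Zfp850 all stand below 0.

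The lower median was seen in members with and without the KRAB annotation of the deposited table. For the counts in this paragraph, 5.53% of all genes tested rose, 4.59% fell and 50.1% were below 0. Of 119 annotated members 4 rose (3.36%), 3 fell (2.52%) and 85 were below 0 (71.4%), and the median was -0.186. Of the 125 others 1 rose (0.8%), 10 fell (8.0%) and 74 were below 0 (59.2%), with a median of -0.122. The 146 members with another Zfp gene within 200000 bases had a median of -0.191 with 4 higher and 10 lower, and the 98 single ones had -0.104 with 1 higher and 3 lower. No test of these differences was made, and the annotation is not complete: Zfp932, known as a KRAB protein, lacks it. Zinc finger families with other names, at the same level, gave medians of 0.058 in 36 Zbtb genes, 0.138 in 15 Zc3h genes, 0.069 in 9 Klf genes, -0.116 in 8 Zkscan genes and -0.158 in 8 Zscan genes. By chromosome, the 60 members on chromosome 7 had 1 higher and 5 lower with a median of -0.238, the 31 on chromosome 17 had 3 higher and 1 lower with -0.044, and the 27 on chromosome 13 had 0 higher and 1 lower with -0.24.

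Per length, the members spanned a mean of 0.514 to 43.4 FPKM over the 4 libraries, with a median of 4.24. Zfp52 was the highest at 43.4 FPKM and Zfp53 stood at 35.6, so 2 of the 5 genes that rose were also among the most abundant per length. Between them lay Zfp36 (tristetraprolin), which binds AU-rich elements and speeds mRNA decay, at 38.2 FPKM. The others of the top 8 were Zfp330 (35.5), Zfp706 (35.1), Zfp445 (31.9), Zfp207 (30), a spindle assembly and splicing factor, and Zfp622 (28.5), a factor of 60S ribosome maturation. Apart from Zfp52 and Zfp53, none of these 8 passed the test. Zfp706 was at 179 and 183 CPM in wild type and at 114 and 142 CPM in the knockout-labelled libraries (log2 fold change -0.50, edgeR adjusted p = 0.0731), without overlap. None of the 13 genes that fell was above 5.78 FPKM in the wild-type mean: Zfp62 was at 5.78 and 0.898 FPKM and Zfp932 at 5.23 and 1.62 FPKM in the wild-type and knockout-labelled means.

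**Figure D4:**
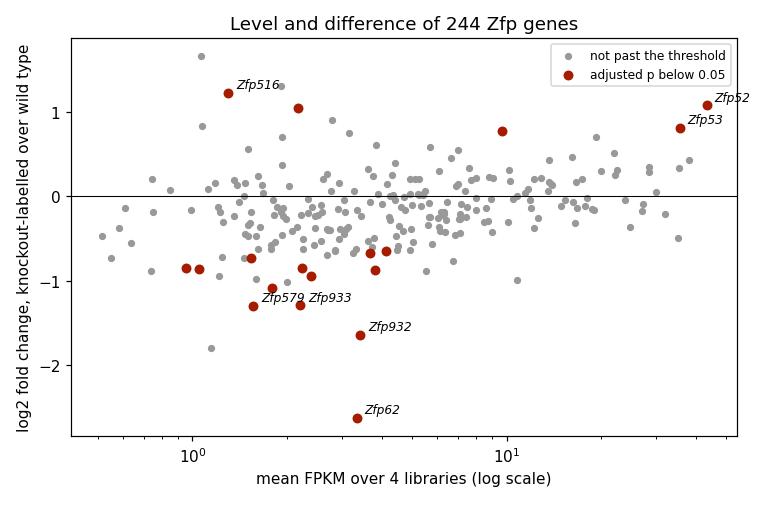
Log2 fold change (knockout-labelled over wild type, y axis) against mean FPKM over 4 libraries (x axis, log scale), 1 point per Zfp gene, with the genes that passed the test marked. Zfp52 and Zfp53 stand at the high end of the levels and above 0, while Zfp62 stands lowest on the y axis near the middle of the levels.

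In 3 lists of Zfp genes with roles in RNA, in general transcription and chromatin, and in lymphocytes, no gene passed the test. The 10 that act on RNA or ribosomes had log2 fold changes from -0.18 in Zfp326 to 0.43 in Zfp36. Zfp36 stood at 63.9 and 53.2 CPM in wild type and at 79.2 and 78.3 CPM in the knockout-labelled libraries, without overlap (edgeR adjusted p = 0.0971). Zfp622 was at 73.1 and 68.0 against 95.0 and 84.0 CPM (edgeR adjusted p = 0.142), and Zfp598, the ubiquitin ligase that senses collided ribosomes, was at 85.9 and 82.9 against 118 and 88.6 CPM (edgeR adjusted p = 0.276). Of these 10, 0 passed by edgeR or DESeq2, and 2 had an unadjusted edgeR p below 0.05. Of the 13 general transcription and chromatin factors, likewise, 0 passed by either tool and 2 had an unadjusted edgeR p below 0.05. Zfp143, a promoter-binding transcription factor, was at 55.2 and 58.5 against 93.5 and 63.6 CPM (edgeR adjusted p = 0.162). Zfp335, needed for T cell maturation, was at 57.6 and 58.3 against 89.1 and 67.0 CPM (edgeR adjusted p = 0.136). In both, library 22 was well above the other 3. Zfp281 (log2 fold change 0.18), Zfp148 (-0.14), Zfp217 (0.06) and Zfp131 (-0.04) were close to 0. Among genes with roles in lymphocytes, Zfp91 was at 214 and 213 against 189 and 192 CPM (edgeR adjusted p = 0.352) and Zfp318, which sets IgD expression in B cells, at 59.5 and 54.0 against 56.6 and 59.0 CPM (edgeR adjusted p = 0.91). Of the 5 genes on that list 0 passed by edgeR or DESeq2 and 2 had an unadjusted edgeR p below 0.05; Zfp683 (Hobit), below the mean count of 100, was at 2.45 and 2.41 against 0.334 and 1.59 CPM.

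Of the KRAB zinc finger proteins known to silence retroelements or imprinted regions, Zfp932 fell, as given above, and the other 3 members listed did not pass. Zfp809, which silences murine leukaemia virus, was at 20.7 and 20.6 CPM in wild type and at 21.1 and 19 CPM in the knockout-labelled libraries (log2 fold change -0.04, SE 0.16, edgeR adjusted p = 0.885). Zfp445, which protects imprinted methylation, was at 95.7 and 107 against 94.8 and 80.7 CPM (edgeR adjusted p = 0.365), and Zfp951 was at 14.9 and 13.1 against 15.5 and 12.1 CPM (edgeR adjusted p = 0.947). Zfp809 was thus at nearly the same level in all 4 libraries. Zfp57, the other imprint guardian, had 1 or 2 counts in each library and was not tested. Zfp568, which represses an imprinted Igf2 transcript and lies below the mean count of 100, was at 5.21 and 7.91 against 4.28 and 2.87 CPM and did not pass (log2 fold change -0.87, edgeR adjusted p = 0.13). All 5 genes tested on this list had log2 fold changes below 0, from -1.64 in Zfp932 to -0.02 in Zfp951, and 3 were lower without overlap. Of all genes tested, 50.1% were below 0 and 32.7% were lower without overlap. Zfp809 and Zfp951 were close to 0.

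The partners of these proteins were looked at next. Of 21 genes of the KRAB corepressor and HUSH silencing complexes that were tested, 1 rose and 3 fell (median log2 fold change -0.051). These are 4.76% and 14.3% of the 21, where 5.53% of all genes tested rose and 4.59% fell. An unadjusted edgeR p below 0.05 was seen in 10 of the 21. DESeq2 called 6, adding Morc2a and 2810474O19Rik. Morc2a was at 58.5 and 69.2 against 33.2 and 44.1 CPM (log2 fold change -0.72, edgeR adjusted p = 0.0513). For 2810474O19Rik, named after its values were seen, the log2 fold change was 0.78 (edgeR adjusted p = 0.0876). Cbx5, which encodes HP1 alpha, was at 521 and 521 CPM in wild type and at 263 and 308 CPM in the knockout-labelled libraries (log2 fold change -0.87, edgeR adjusted p = 0.0167). Chd3, a NuRD remodeller, was at 402 and 425 against 265 and 247 CPM (log2 fold change -0.69, edgeR adjusted p = 0.0219), and Hdac1 at 134 and 129 against 82.5 and 95.3 CPM (log2 fold change -0.56, edgeR adjusted p = 0.0475). Daxx, a histone H3.3 chaperone, rose from 40.5 and 37.7 to 57.4 and 58.2 CPM (log2 fold change 0.56, edgeR adjusted p = 0.0403). Trim28 (log2 fold change 0.13, edgeR adjusted p = 0.462) and Setdb1 (0.22, edgeR adjusted p = 0.386), the core of the pathway and named outside the rule, did not pass. None of the 4 calls was kept when either wild-type library was left out (edgeR adjusted p from 0.0664 in Cbx5 to 0.366 in Daxx). The Daxx call was also lost with library totals (edgeR adjusted p = 0.0516) and with both limma fits on log2 FPKM (adjusted p = 0.0793 and 0.0755), and the Hdac1 call with both limma fits (adjusted p = 0.0547 and 0.0525). Of the 9 genes of CCCH-type mRNA decay factors and Roquins, which are relatives of Zfp36, 1 rose: Zc3h12c was at 7.35 and 7.10 CPM against 41.1 and 19.1 CPM (log2 fold change 2.06, edgeR adjusted p = 0.026), a call lost with limma on log2(FPKM + 1) (adjusted p = 0.0549). All 9 of these genes had log2 fold changes above 0, from 0.11 to 2.06, and 7 were higher without overlap (77.8%). Of all genes tested, 50.1% were below 0 and 31.1% were higher without overlap. DESeq2 called 2 of the 9, Zc3h12c and Zfp36l2, and 6 had an unadjusted edgeR p below 0.05. The list was written with earlier results of these data known.

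In some members the libraries of a group lay far apart. A difference of at least 2-fold between replicates was seen in 5 members in wild type (2.05%) and in 8 in the knockout-labelled group (3.28%), where 0.806% and 2.23% of the genes with a mean count of 100 or more showed it; these genes were chosen after their values were seen. Zfp292, a large zinc finger transcription factor, was at 144 and 149 CPM in wild type and at 129 CPM in library 24, but at 17.9 CPM in library 22. Its log2 fold change of -0.995 did not pass (edgeR adjusted p = 0.389), and it was -0.17 without library 22 and -3.04 without library 24 (edgeR adjusted p = 0.00183). Zfp422 was high in library 15 (57.3 CPM) and library 24 (41.8 CPM) and low in library 13 (6.80 CPM) and library 22 (4.41 CPM), so it split both groups. Zfp180 was at 58.3 CPM in library 22 and at 9.12 to 14.3 CPM in the other 3. Zfp12 was at 40.7 CPM in library 13 and at 7.02 to 11.5 CPM in the other 3, and Zfp46 at 20.2 CPM in library 24 and at 2.45 to 5.03 CPM in the other 3. In each of these genes 1 or 2 libraries set the group means. Over all 244 members the median difference between replicates on the log2 scale was 0.118 for wild type and 0.223 for the knockout-labelled libraries. All genes tested with a mean count of 100 or more gave 0.104 and 0.223.

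**Figure D5:**
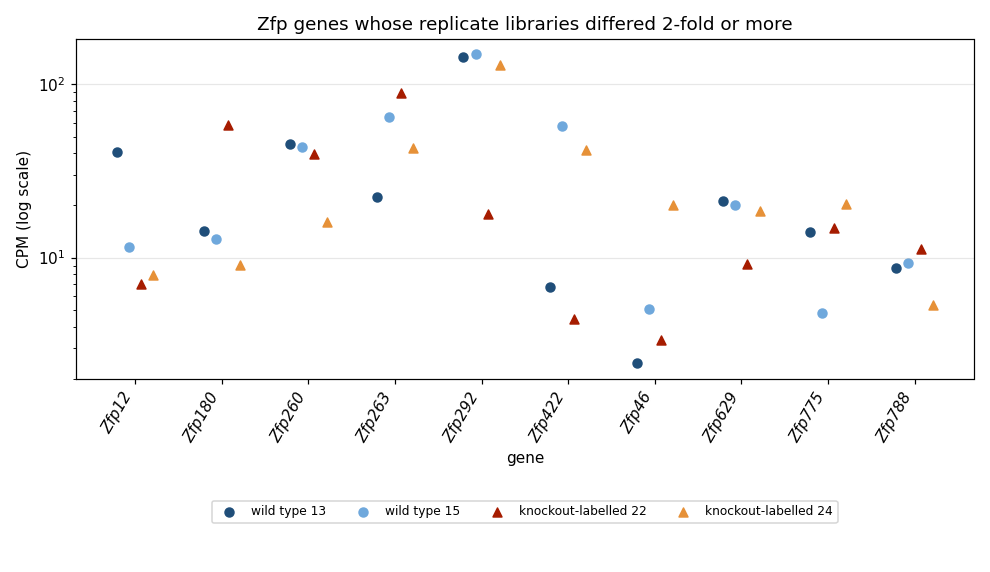
CPM (y axis, log scale) of the Zfp genes whose replicates differed by at least 2-fold in either group, 1 point per library. Zfp292 is low in library 22 only, and Zfp422 is high in 1 library of each group.

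Promoter windows were found in RefSeq for 207 of the 244 members (250 windows). The GC box GGGCGG occurred, on either strand, in 49.6% of them, where 35.7% of all 32851 windows hold it, and the ETS motif CCGGAAG in 21.2%, where 8.86% of all windows do. The CRE palindrome TGACGTCA was in 5.2% against 1.79%. The members were chosen by level and the 32851 windows were not, so these sets are unlike. Whether other genes of this level have similar shares was not tested. Among the members that fell, 7 of 14 windows held GGGCGG and 3 held CCGGAAG, close to the shares in all members; among those that rose, 3 of 4 windows held GGGCGG. Genes with several starts enter more than once, and a match in a window does not show that a factor binds.

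The choice of a mean count of 100 leaves similar genes on either side. Just inside were Zfp563 (mean count 102), Zfp235 (104.25) and Zfp719 (105.25), and just outside Zfp963 (98.5), Zfp213 (97.0) and Zfp438 (96.5). None of these 6 passed the test.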

How the data were processed

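Per the submitters' processing notes, reads were handled with Bowtie2 and RSEM on GRCm38.p6 (mm10); their versions, the annotation and the strand setting were not given in the sources used here. The deposited table holds whole-number counts and FPKM values per gene (scaled by gene length and library size), with gene loci and KEGG annotation. All 4 libraries were used, and their groups came from the labels.

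Counts were tested as deposited with edgeR 4.0.16 (R 4.3.3): filterByExpr (minimum count 10, minimum total 15), TMM scaling, quasi-likelihood fit and two-sided test of knockout-labelled against wild type, Benjamini-Hochberg adjustment over 13279 genes, threshold 0.05. CPM values are TMM-scaled. An exact permutation test of 2 against 2 libraries cannot go below p = 0.333, so none was used. On simulated counts over 13061 genes with 200 changed, the same steps recovered 11.9%, 55.2% and 92.4% of 1.5-, 2- and 4-fold changes, and 6.19% of the calls were false. Alternatives were DESeq2 1.42.0, relative log expression scaling, library totals, no filter on low counts, limma 3.58.1 on log2(FPKM + 1) and log2(FPKM + 0.1), other minimum mean counts, and each library left out.

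The KRAB annotation is the deposited KEGG orthology term; protein sequences were not used here. The share of 50-base stretches unique to a gene came from GENCODE vM21 transcripts. Promoter windows came from RefSeq (GRCm38.p6). The members and gene lists were chosen with earlier results of these data known. Genes named were the members that passed, the 8 highest in FPKM, those next to the threshold of 100, those in the role lists, up to 5 of each partner list by adjusted p, and Setd2; Gm15446, Zfp60, Zfp51, Zfp54, the other chain members, Trim28, Setdb1 and the genes that split replicates were named after their values were seen.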

Additional observations from a re-analysis of the deposited data

How the results depend on the processing

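The direction of the median over the Zfp genes, below 0, was the same under each alternative: -0.212 with library totals, -0.168 and -0.214 with limma on log2(FPKM + 1) and log2(FPKM + 0.1), -0.18 and -0.131 with a minimum mean count of 50 and 200, and -0.177 to -0.127 with 1 library left out. The counts of single genes were less firm. Members higher numbered 9 with no filter, 3 with limma on log2(FPKM + 0.1), 3 at a mean count of 200 and 0 to 22 with 1 library left out; members lower numbered 26 with no filter, 6 and 6 with limma, and 2 to 54 with 1 library left out. Over all genes, 1261 were higher and 1088 lower with no filter, 445 and 457 were higher with limma, and 120 to 2122 were higher and 70 to 2002 lower with 1 library left out. Apart from Zfp62 and Zfp932, the other 16 members that passed were all lost without wild-type library 13 (edgeR adjusted p 0.0518 to 0.195) or 15 (0.0823 to 0.371); Zfp329, Zfp672 and Zfp783 were lost without library 22, none without library 24, and 9 and 10 with limma. None of the 18 reversed. The cause was not tested.

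Genes near 0 changed sign: Zfp207 gave -0.01 and Zfp318 -0.03 with library totals and with both limma fits. With 1 library left out, log2 fold changes ran from -0.27 to 0.03 in Zfp106, -0.10 to 0.02 in Zfp131, -0.30 to 0.01 in Zfp148, -0.04 to 0.15 in Zfp217, -0.05 to 0.09 in Zfp318, -0.21 to 0.00 in Zfp384, -0.41 to 0.11 in Zfp438, -0.26 to 0.01 in Zfp563, -0.49 to 0.15 in Zfp592, -0.11 to 0.03 in Zfp809, -0.22 to 0.07 in Zfp830 and -0.21 to 0.14 in Zfp951. A group left with 1 library is assumed to vary like the other. Leaving out a wild-type library thus sets the scatter by the wider knockout-labelled pair. Leaving out a knockout-labelled library sets it by the narrower wild-type pair. Counts passing in these fits therefore do not show that a call rests on 1 library. No paired analysis was possible because the groups share no replicate numbers. With 2 libraries a group, 1.5-fold changes were mostly not detectable.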

Other observations

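Zfp genes below the mean count of 100 gave a lower median than the members. Of the 122 such rows, 65 passed the filter on low counts, 1 of them rose, 4 fell, 48 were below 0, and the median log2 fold change was -0.399. A row that passed only through the group where it was high had to differ, so this is a description. Zfp11 was at 7.35 and 8.18 CPM in wild type and at 2.54 and 2.87 CPM in the knockout-labelled libraries (log2 fold change -1.52, edgeR adjusted p = 0.0223). Zfp811, the 1 that rose, was at 0.918 and 0.603 against 2.81 and 3.25 CPM (log2 fold change 1.98). It reached the filter's level in both knockout-labelled libraries but not in both wild-type ones. Its difference is therefore such a description, and its p-value is not given. Of 17 genes with the KRAB annotation but other names, at a mean count of 100 or more, 0 rose, 2 fell and 14 were below 0, with a median of -0.404. These genes were looked at after their values were seen.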
